A study of Mus musculus with 6 samples.

Results

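The 41 genes described here carry the signal of cyclic AMP (cAMP) inside the cell. They were taken by symbol from a list with 9 classes: 9 adenylyl cyclases, 2 catalytic subunits, 4 regulatory subunits and 3 inhibitors of protein kinase A (PKA), 13 phosphodiesterases, 3 CREB-type transcription factors, 3 CREB coactivators, 2 salt-inducible kinases and 2 Epac exchange factors. All 41 were among the 24346 gene symbols of the deposited tables. Messenger RNA was sequenced from the nasomaxillary complex, the bony, cartilaginous and soft tissue that makes up nose and upper jaw, of mouse embryos at E17.5. The 3 mutant libraries have the genotype Wnt1-Cre:Pth1r f/f and the 3 control libraries the genotype Pth1r f/f. All 6 therefore share the floxed alleles of Pth1r, which encodes the shared receptor of parathyroid hormone and its relative PTHrP, and none was treated. Wnt1-Cre acts in the neural crest lineage, which forms much of the facial skeleton. Muscle fibres, blood, the endothelium of vessels and surface epithelium of the same dissection come from other lineages. The controls carry no Cre, so an effect of the transgene and of the Pth1r deletion cannot be told apart.

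Pth1r is a G protein-coupled receptor, and through the stimulatory G protein it activates adenylyl cyclases, which make cAMP from ATP. cAMP releases the catalytic subunits of PKA from its regulatory subunits, and free catalytic subunits phosphorylate CREB and the salt-inducible kinases, or are held by the small PKA inhibitor proteins. Phosphodiesterases break cAMP down, and Epac proteins are a second class of cAMP sensor that activates the small GTPase Rap. In the growth plate this route is known for slowing the maturation of chondrocytes. The question put to the data was how the messenger RNA of these enzymes and sensors compares between mutant and control tissue.

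Values are FPKM, fragments per kilobase of transcript, scaled to library depth, and can be compared between genes because they are per length. Depth, estimated from the spacing of low values, was 12900000, 11400000 and 8500000 fragments in mutant replicates 1, 2 and 3 and 12600000, 14000000 and 11900000 in control replicates 1, 2 and 3. Whether each library is a separate embryo is not given in the labels, so p-values measure the spread between these samples. Xist, the RNA of the inactive X chromosome, measured 77.1, 0.0263 and 0.0295 FPKM in the mutant libraries and 74.4, 74.1 and 74.1 FPKM in the control libraries. The Y-linked Ddx3y measured 0, 15.1 and 14.1 FPKM in mutant libraries and 0 in each control library, so mutant replicates 2 and 3 differ from the other 4 libraries in sex. Pth1r itself measured 77.3, 78.4 and 69.7 FPKM in mutant libraries and 75.2, 55.2 and 73.5 FPKM in control libraries, a log2 change of 0.15 ± 0.12 (SE, limma adjusted p = 0.686). Since the floxed part of the gene is not given in the labels, this level is no check of the genotype.

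CREB factors bind the cAMP response element TGACGTCA or its first 5 letters, and the promoters of the members were read for these letters because several members are themselves known as cAMP-responsive. RefSeq promoter sequences (GRCm38.p6) were found for 32 of the 41 members, with 66 start sites. The 250 bases before each start were searched on both strands. Adcy6, Adcy8, Crem, Crtc2, Pde3a, Pde3b, Pde7a, Pkia and Sik1 had no entry, so the counts below leave them out. The full element stood in 1 of the 66 member windows (1.52%), against 1.55% of 32851 windows of all genes. The 5-letter core TGACG, which reads CGTCA where it lies on the opposite strand and which the full element contains on both strands, stood in 15 member windows (22.7%), against 17.8% of all windows. The full element lay before a start site of Prkar1a, the most abundant member of the set. The cores shown with it belong to the members whose libraries did not overlap between genotypes, since their levels are described below. Of the 12 such members, Sik1, Pkia, Pde3b and Pde7a had no entry in the promoter table, and Adcy5, Pde10a and Prkar2b had entries in which these windows held no core. Each line is 30 bases, 5′ to 3′ on the strand of the gene, with the matching letters in capitals.
Prkar1a: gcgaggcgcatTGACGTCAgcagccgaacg
Adcy7: gatcatagagcCGTCAggggggtggggctc
Pde1a: taacttcagccCGTCAttcctcagtaattc
Prkacb: gggcttgaccgCGTCActtccggcgcgccc
Pkig: tttgacaaatgTGACGggcctgggatgcag
Atf1: tgaccacgcggTGACGcagcacgccggcgc
The Prkar1a stretch is chr11:109650889-109650918 on the plus strand, and its element begins 49 bases before the start site. The Adcy7 stretch is chr8:88282953-88282982 on the plus strand, and the Pde1a stretch is chr2:80039050-80039079 on the minus strand. The Prkacb stretch is chr3:146813030-146813059 on the minus strand. The Pkig and Atf1 stretches are chr2:163693815-163693844 and chr15:100227758-100227787, both on the plus strand. The Prkar1a, Adcy7, Pde1a and Pkig stretches lie before start sites downstream of the annotated 5′ end of the gene, and these genes have other start sites too. Which start site is used in this tissue was not tested. A match is a description of these letters, and binding was not measured.

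The pathway was present at every step in the tissue, and its levels spanned from below 1 FPKM to above 120 FPKM. The most abundant members were the PKA subunit genes Prkar1a (125.7 ± 3.77 FPKM in mutant and 120.4 ± 3.01 FPKM in control, SD, n = 3 each) and Prkaca (71.5 ± 6.41 and 67.7 ± 1.23 FPKM). The PKA inhibitor gene Pkig came next (50.0 ± 3.27 and 56.1 ± 1.96 FPKM), followed by the cyclase Adcy6 (37.3 ± 0.818 and 36.1 ± 0.718 FPKM). Adcy8, Pde4c and Pkib were the lowest, with means over the 6 libraries of 0.375, 0.456 and 0.869 FPKM. These 3 stayed under the minimum mean of 1 FPKM and were not tested, which left 38 tested members.

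**Figure D1:**
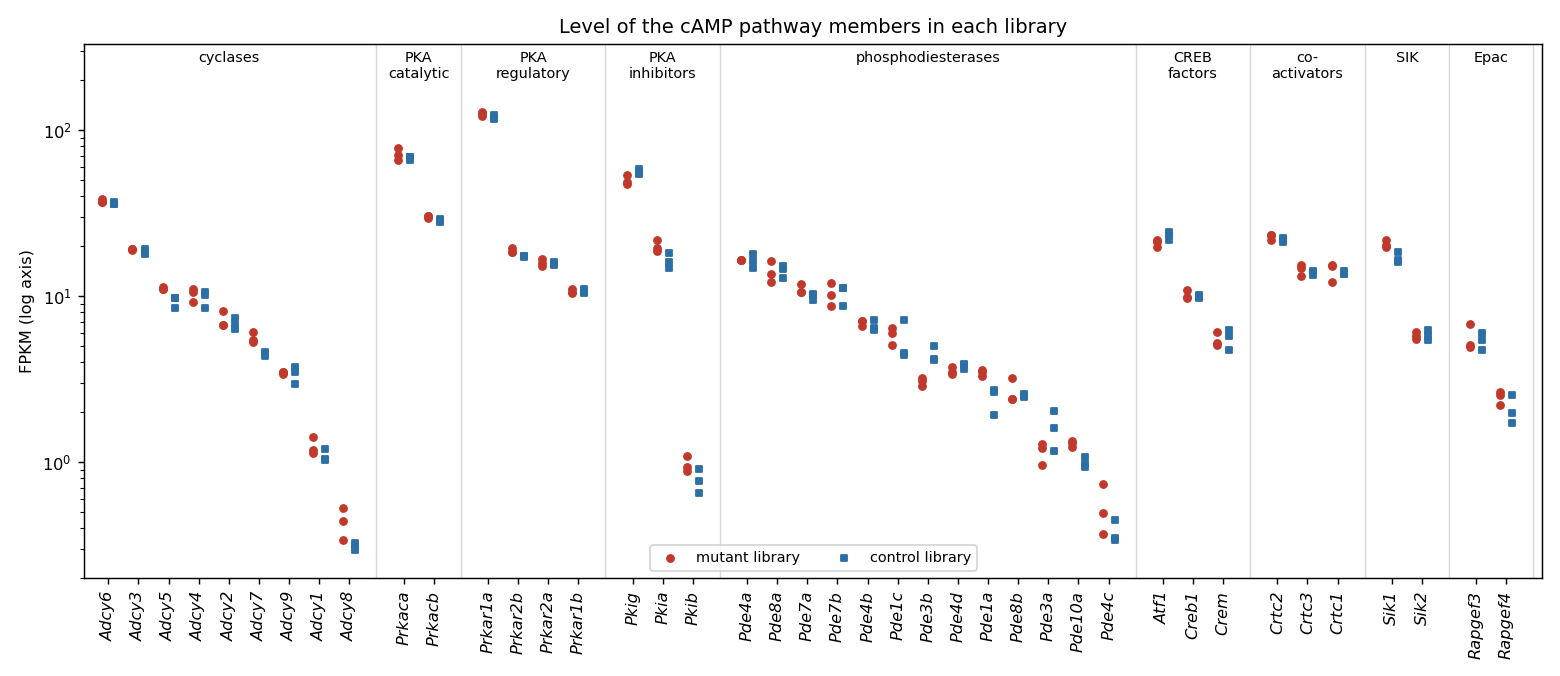
FPKM (log axis) of the 41 members in each of the 3 mutant libraries (red circles) and 3 control libraries (blue squares), by class and in falling order of mean level within a class. Prkar1a stands highest, near 120 FPKM in both genotypes, and Adcy8 lowest.

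No member differed between the genotypes beyond the correction for all genes. In a limma fit over 14766 genes, 0 of the 38 tested members passed an adjusted p of 0.05, where 0.264% of all tested genes did. At an unadjusted p under 0.05 there were 7 members (Pde3b, Sik1, Adcy7, Adcy5, Pde1a, Pkia and Pkig), where 11.3% of all tested genes passed. In 12 of the 38 tested members (31.6%) every mutant library lay on the same side of every control library, against 17.0% of all tested genes. Mutant was higher in 9 of the 38 tested members, against 7.85% of all tested genes, and lower in 3 of the 38, against 9.16%. The changes were small. The median log2 change of the members was 0.057, against -0.002 over all tested genes, and 30 of 38 changes were positive, against 49.2% of all genes. With sex as a covariate, which in effect sets mutant replicate 1 against the 3 controls, 23 of 38 were positive (60.5%, against 49.6% of all genes) and 2 members, Pde3b and Atf1, had an unadjusted p under 0.05, against 5.14% of all genes. In the fit of all 6 libraries, the 95% interval lay within a 1.5-fold change in either direction for 35 of the 38 members, on the log2(FPKM + 1) scale, where changes of genes at low FPKM come out too small. The exceptions were Pde1a, Pde3a and Pde3b. In tissue with many cell types, fewer cells of a type and less RNA per cell cannot be told apart.

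**Figure D2:**
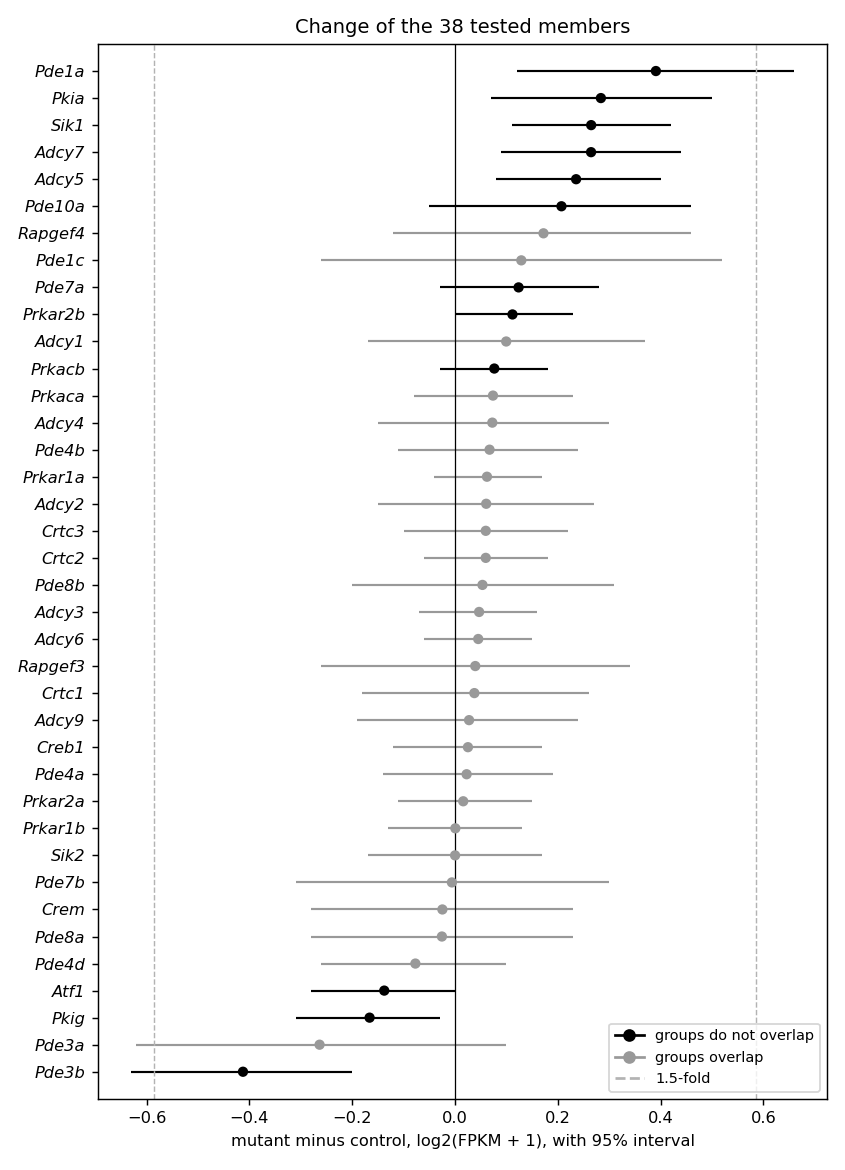
Change of the 38 tested members, mutant minus control on the log2(FPKM + 1) scale (x axis), with limma 95% intervals; black members are those whose groups did not overlap, and dashed lines mark 1.5-fold. Most intervals cross 0 and stay inside the dashed lines, and Pde1a and Pde3b lie at the ends.

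Of the 9 adenylyl cyclases, the enzymes that make cAMP, 8 were tested. All 8 had positive changes in the fit of all 6 libraries, from 0.03 to 0.26 on the log2 scale, and 0 passed the adjusted threshold. With sex as a covariate the Adcy2 change was -0.02. Adcy6, a broadly expressed cyclase inhibited by calcium, made up the largest share of the cyclase messenger RNA, 38.7%, 38.5% and 39.6% of the summed FPKM in mutant libraries and 40.2%, 40.3% and 40.1% in control libraries. Its own level was 36.8, 38.2 and 36.9 FPKM in mutant libraries and 36.9, 35.7 and 35.7 FPKM in control libraries. The groups overlapped for Adcy6, with a log2 change of 0.05 ± 0.04 (SE, limma adjusted p = 0.761). That change was 0.026 with sex as a covariate.

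Adcy5, the calcium-inhibited cyclase closest in sequence to Adcy6, measured 11.1, 11.3 and 11.1 FPKM in mutant libraries, against 9.74, 9.78 and 8.46 FPKM in control libraries. All mutant values lay above all control values, and the mutant libraries lay close together. The ratio of means was 1.19 and the log2 change 0.24 ± 0.07 (SE, limma adjusted p = 0.292, unadjusted 0.00997). Adcy7, a cyclase best known from blood cells, measured 5.43, 6.05 and 5.27 FPKM in mutant libraries, against 4.45, 4.63 and 4.34 FPKM in control libraries. Again the groups did not overlap, with mutant replicate 2 the highest. Mutant over control means gave 1.25, with a log2 change of 0.26 ± 0.07 (SE, limma adjusted p = 0.285). The summed level of 8 leukocyte markers, among them Ptprc and Csf1r, ran from 291 to 316 FPKM in mutant libraries and from 250 to 270 FPKM in control libraries. S100a8 and S100a9, genes known from neutrophils, made up 109, 110 and 116 FPKM of it in mutant libraries and 79.8, 93.9 and 77.0 FPKM in control libraries. The other 6 markers summed to between 181.5 and 205.8 FPKM in mutant and between 162.5 and 192.9 FPKM in control libraries, which overlapped. Ptprc and Csf1r each overlapped as well, but Laptm5 did not. Laptm5 measured 22.3, 23.6 and 22.4 FPKM in mutant libraries and 19.4, 17.1 and 22.1 FPKM in control libraries. All 8 markers had positive changes, and 3 of them, S100a8, S100a9 and Laptm5, did not overlap. None of the 8 was at 0 in all libraries, and their part in the Adcy7 values was not tested. Adcy5 and Adcy7 had changes of 0.23 and 0.23 with sex as a covariate.

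Adcy3, the cyclase of olfactory neurons, was the second most abundant cyclase at 19.3, 19.3 and 18.9 FPKM in mutant libraries and 17.96, 19.2 and 18.5 FPKM in control libraries. The groups overlapped. The 6 olfactory neuron markers, Omp among them, summed to between 292 and 304 FPKM in mutant and between 263 and 306 FPKM in control libraries. The other cyclases were lower. Adcy4, Adcy2 and Adcy9 averaged 10.3, 7.15 and 3.47 FPKM in mutant and 9.76, 6.80 and 3.40 FPKM in control libraries, and Adcy1 stood at 1.24 and 1.09 FPKM. Adcy8 measured 0.341, 0.443 and 0.529 FPKM in mutant libraries and 0.296, 0.314 and 0.325 FPKM in control libraries, which did not overlap but were too low to be tested. Summed over the class, cyclase FPKM was 95.8 ± 3.23 in mutant and 89.8 ± 1.74 in control libraries (SD, n = 3 each), a pair of ranges that did not overlap.

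PKA holds a pair of regulatory and a pair of catalytic subunits. Prkaca, the main catalytic subunit gene, measured 70.4, 78.4 and 65.7 FPKM in mutant libraries and 68.5, 66.3 and 68.4 FPKM in control libraries. The groups overlapped, with mutant replicate 2 the highest and mutant replicate 3 the lowest of all 6, and the log2 change was 0.07 ± 0.07 (SE, limma adjusted p = 0.743). Leaving out mutant replicate 2 gave 0.0064, and leaving out mutant replicate 3 gave 0.132. Prkacb, the second catalytic subunit gene, measured 29.7, 30.2 and 30.5 FPKM in mutant libraries, against 27.8, 28.6 and 29.2 FPKM in control libraries. Its groups did not overlap, but the ratio of means was 1.06 and the log2 change 0.08 ± 0.04 (SE, limma adjusted p = 0.570). Prkaca supplied 70.3% ± 1.95 of the catalytic FPKM in mutant and 70.4% ± 0.685 in control libraries (SD, n = 3 each).

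All 4 regulatory subunit genes were tested, and 0 passed. Prkar1a, the widely expressed type I subunit, measured 121.8, 126.1 and 129.3 FPKM in mutant libraries and 117.3, 123.3 and 120.5 FPKM in control libraries. The groups overlapped (log2 change 0.06 ± 0.05 SE, limma adjusted p = 0.666), and the change was 0.02 with sex as a covariate and 0.0975 with quantile normalization. Prkar2b, a type II subunit known from brain and fat, measured 18.4, 18.5 and 19.5 FPKM in mutant libraries, against 17.2, 17.3 and 17.4 FPKM in control libraries. These groups did not overlap, and the ratio of means was 1.09 (log2 change 0.11 ± 0.05 SE, limma adjusted p = 0.447). Prkar2a and Prkar1b differed by 0.02 and 0.00070 on the log2 scale. Their 95% intervals ran from -0.11 to 0.15 and from -0.13 to 0.13. The balance of the class differed by less than its spread. Prkar1a supplied 73.5% ± 0.384 of the regulatory FPKM in mutant and 73.4% ± 0.285 in control libraries, and regulatory over catalytic FPKM was 1.69 ± 0.119 and 1.70 ± 0.0518 (SD, n = 3 each).

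The PKA inhibitors are small proteins that occupy the substrate site of the catalytic subunit and carry it out of the nucleus. The 2 tested inhibitor genes had changes of opposite sign, and 0 passed the adjusted threshold. Pkia (chromosome 3), the inhibitor best known from skeletal muscle and brain, measured 18.7, 21.9 and 19.5 FPKM in mutant libraries, against 14.7, 18.3 and 15.9 FPKM in control libraries. All mutant values lay above all control values, by a small margin between mutant replicate 1 and control replicate 2. The ratio of means was 1.23 and the log2 change 0.28 ± 0.09 (SE, limma adjusted p = 0.330, unadjusted 0.0163). Pkig (chromosome 2), the most abundant inhibitor gene, measured 53.7, 47.6 and 48.6 FPKM in mutant libraries, against 58.3, 54.5 and 55.6 FPKM in control libraries. Here all mutant values lay below all control values. Mutant over control means gave 0.890, with a log2 change of -0.17 ± 0.06 (SE, limma adjusted p = 0.370, unadjusted 0.0253). With sex as a covariate the Pkia change was 0.19 and the Pkig change -0.06.

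The ratio of Pkia to Pkig was 0.349, 0.460 and 0.400 in mutant libraries and 0.252, 0.335 and 0.287 in control libraries. The mutant ratios lay above the control ratios, as they must where every Pkia value is higher and every Pkig value lower. Mutant replicate 1 and control replicate 2 lay close to each other. The summed inhibitor FPKM overlapped, at 71.0 ± 2.16 in mutant and 73.2 ± 0.727 in control libraries (SD, n = 3 each). Inhibitor over catalytic FPKM was 0.733, 0.649 and 0.717 in mutant libraries, below the 0.767, 0.774 and 0.742 of the control libraries. The catalytic sums overlapped too, at 100.1, 108.6 and 96.3 FPKM in mutant and 96.2, 94.9 and 97.6 FPKM in control libraries. This ratio is not independent of the values above. It holds Pkig, lower in every mutant library, above the line and Prkacb, higher in every mutant library, below it. Pkib, the third inhibitor gene, measured between 0.648 and 1.08 FPKM over the 6 libraries and was not tested. The summed level of 10 skeletal muscle markers, Myod1 and Ckm among them, ran from 568 to 1431 FPKM in mutant and from 380 to 630 FPKM in control libraries. All 10 had positive changes, and 4 of them, Myh3, Myog, Myod1 and Tnni1, did not overlap between genotypes. The rest of the 10 overlapped. Mutant replicate 2 had the highest muscle sum and the highest Pkia value of the mutant libraries, while control replicate 2 had the lowest muscle sum and the highest Pkia value of the control libraries. The part of muscle in the Pkia values was not tested, and without mutant replicate 2 the Pkia change was 0.222.

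**Figure D3:**
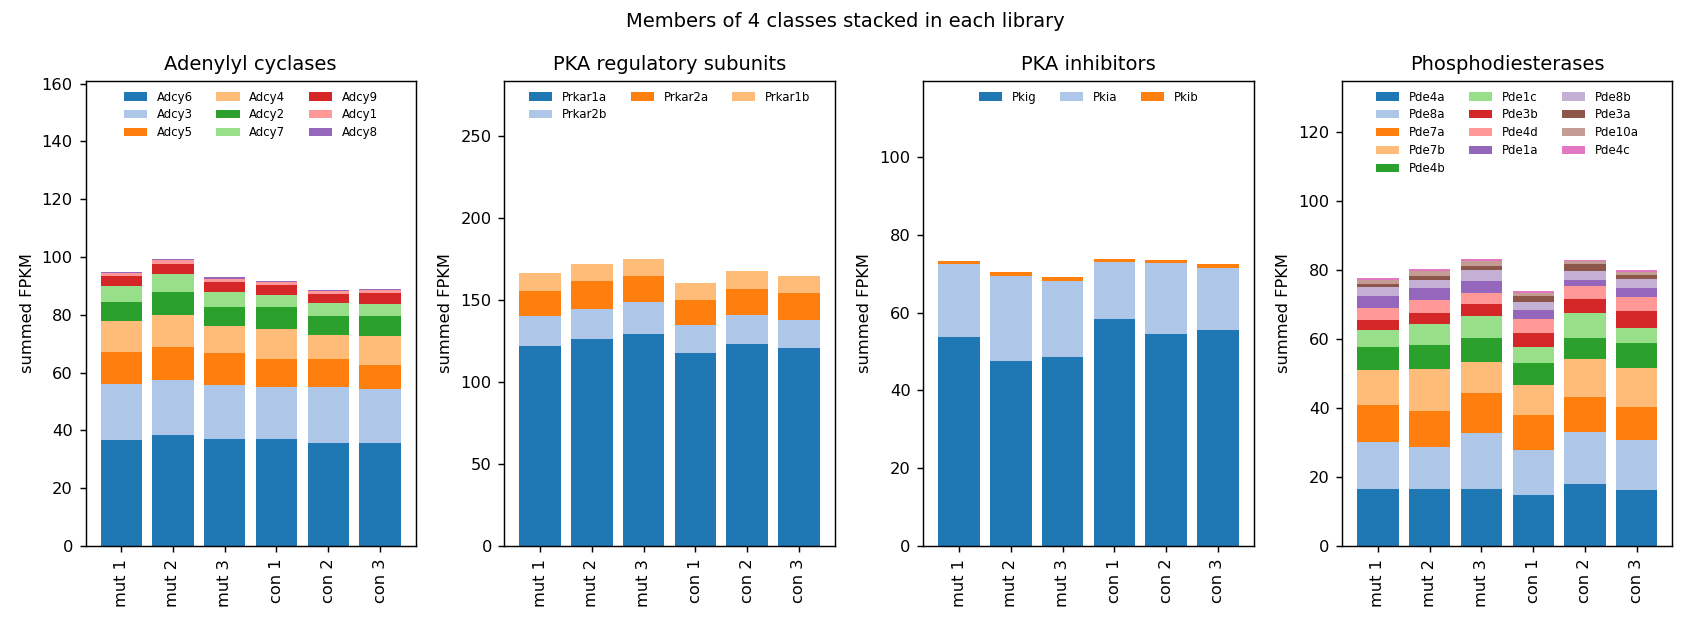
Summed FPKM (y axis, from 0) of 4 classes stacked by member in mutant libraries (mut 1 to 3) and control libraries (con 1 to 3). Adcy6, Prkar1a, Pkig and Pde4a stand at the base of the bars, and Pkig made up 67.5% to 73.2% of inhibitor FPKM in mutant libraries and 74.3% to 79.0% in control libraries.

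The 13 phosphodiesterases break down cAMP, some of them cGMP as well, and 12 were tested. Of these 7 had positive and 5 negative changes, and 0 passed the adjusted threshold. The cAMP-specific families Pde7 and Pde8 together made up 47.3% ± 0.954 of the class in mutant and 47.0% ± 0.383 in control libraries, and the Pde4 family 34.3% ± 0.922 and 34.3% ± 0.538 (SD, n = 3 each). The most abundant member was Pde4a, at 16.5, 16.6 and 16.4 FPKM in mutant libraries and 14.8, 17.8 and 16.2 FPKM in control libraries. Its mutant values lay inside the control range (log2 change 0.02 ± 0.07 SE, limma adjusted p = 0.937). That change was -0.0389 without control replicate 1 and 0.085 without control replicate 2.

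The member with the smallest p of the whole set was Pde3b (chromosome 7, from 114415281 in GRCm38), a phosphodiesterase inhibited by cGMP and known as the enzyme through which insulin lowers cAMP in fat cells. It measured 2.89, 3.06 and 3.23 FPKM in mutant libraries, against 4.19, 4.09 and 4.98 FPKM in control libraries. All mutant values lay below all control values, with a gap between 3.23 and 4.09 FPKM. The ratio of means was 0.693 and the log2 change -0.41 ± 0.09, with a 95% interval from -0.63 to -0.20 (limma adjusted p = 0.191, unadjusted 0.00264). With sex as a covariate the change was -0.47, and over 18 alternatives it ran from -0.511 to -0.339. Its closest relative Pde3a was low, at 0.963, 1.21 and 1.28 FPKM in mutant libraries and 1.60, 2.04 and 1.16 FPKM in control libraries. Pde3a also had a negative change, -0.26 ± 0.15, but its groups overlapped through control replicate 3 (SE, limma adjusted p = 0.569).

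Pde1a, which is activated by calcium and calmodulin and hydrolyses both cAMP and cGMP, had the largest positive change of the set. It measured 3.50, 3.59 and 3.29 FPKM in mutant libraries, against 2.65, 1.91 and 2.70 FPKM in control libraries. The groups did not overlap, and control replicate 2 was the lowest library. Mutant over control means gave 1.43, with a log2 change of 0.39 ± 0.12 (SE, limma adjusted p = 0.298, unadjusted 0.0108). With sex as a covariate it was 0.41. The ratio of Pde3b to Pde1a was 0.826, 0.852 and 0.983 in mutant libraries and 1.58, 2.14 and 1.84 in control libraries. Pde1a thus exceeded Pde3b in each mutant library and was below it in each control library. This pair was set side by side after its values were seen. Ratios of genes that separate in opposite directions cannot overlap, so the ratio adds nothing to the separate values of Pde1a and Pde3b.

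A further pair of phosphodiesterases did not overlap between genotypes. Pde10a, a dual-specificity enzyme best known from the striatum, measured 1.24, 1.33 and 1.31 FPKM in mutant libraries, against 0.975, 0.927 and 1.07 FPKM in control libraries. Mutant was higher throughout, at a level close to the minimum for testing (ratio of means 1.31, log2 change 0.21 ± 0.11 SE, limma adjusted p = 0.523). With a pseudocount of 0.1 FPKM in place of 1 its change was 0.359. Pde7a, a cAMP-specific enzyme, measured 10.6, 10.5 and 11.8 FPKM in mutant libraries, against 10.3, 10.2 and 9.52 FPKM in control libraries. The margin between the groups was narrow, and mutant replicate 3 was the highest (log2 change 0.12 ± 0.07 SE, limma adjusted p = 0.536). Its change was 0.08 with sex as a covariate and 0.0742 without mutant replicate 3.

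The remaining phosphodiesterases overlapped between genotypes, with log2 changes from -0.08 for Pde4d to 0.13 for Pde1c. Pde8a and Pde7b averaged 14.0 and 10.3 FPKM in mutant and 14.2 and 10.3 FPKM in control libraries. Pde4b, Pde4d and Pde8b averaged 6.95, 3.54 and 2.67 FPKM in mutant and 6.59, 3.79 and 2.52 FPKM in control libraries. Pde1c, which with Adcy3 belongs to the cilia of olfactory neurons, was the most variable, at 5.09, 6.03 and 6.46 FPKM in mutant libraries and 4.41, 7.13 and 4.55 FPKM in control libraries. Pde4c was under 1 FPKM in every library and was not tested. Summed phosphodiesterase FPKM was 80.3 ± 2.82 in mutant and 78.9 ± 4.69 in control libraries (SD, n = 3 each).

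**Figure D4:**
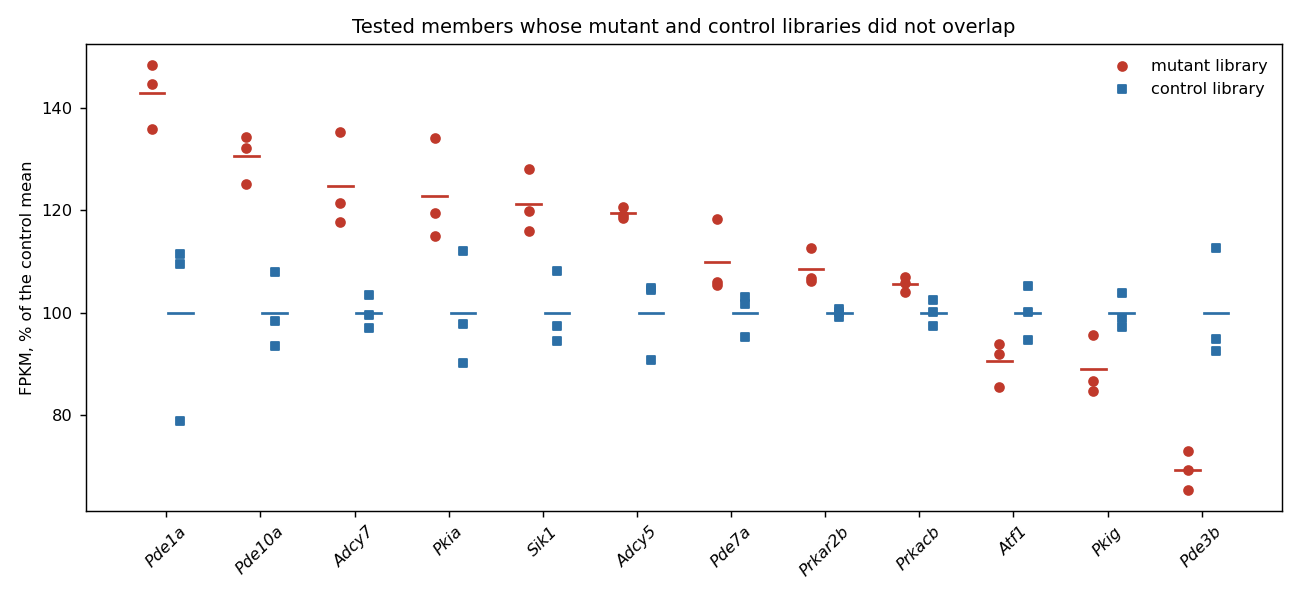
FPKM of the 12 tested members whose groups did not overlap, as a percentage of the control mean, in each mutant library (red circles) and control library (blue squares), with group means as lines. Pde1a stands farthest above and Pde3b farthest below the control mean, and Prkacb, Prkar2b and Pde7a differ by little.

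CREB factors switch on genes once PKA has phosphorylated them. Atf1, the most abundant of the 3, measured 19.8, 21.7 and 21.3 FPKM in mutant libraries, against 23.2, 21.9 and 24.3 FPKM in control libraries. All mutant values lay below all control values, with mutant replicate 2 and control replicate 2 almost equal. The ratio of means was 0.905 and the log2 change -0.14 ± 0.06 (SE, limma adjusted p = 0.449), and it was -0.21 with sex as a covariate. Creb1 averaged 10.1 ± 0.583 FPKM in mutant and 9.93 ± 0.191 FPKM in control libraries, and Crem 5.45 ± 0.546 and 5.57 ± 0.774 FPKM (SD, n = 3 each). Both overlapped between genotypes. Crem also encodes the short inducible repressor ICER from an internal promoter, which these values do not separate.

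The CREB coactivators, which enter the nucleus when cAMP signalling removes their phosphate, had changes from 0.04 to 0.06. Crtc2 was the highest at 23.2, 21.8 and 23.5 FPKM in mutant libraries and 22.2, 21.3 and 22.2 FPKM in control libraries. Its groups overlapped (log2 change 0.06 ± 0.05 SE, limma adjusted p = 0.718), and without mutant replicate 2 the change was 0.0910. Crtc1 averaged 14.3 ± 1.89 FPKM in mutant and 13.8 ± 0.380 FPKM in control libraries, and Crtc3 14.4 ± 1.12 and 13.8 ± 0.367 FPKM (SD, n = 3 each).

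The salt-inducible kinases phosphorylate these coactivators and are switched off by PKA downstream of Pth1r, and Sik1 is itself a gene induced by cAMP. Sik1 (chromosome 17, from 31844250 in GRCm38) measured 19.6, 21.7 and 20.3 FPKM in mutant libraries, against 18.3, 16.0 and 16.5 FPKM in control libraries. All mutant values lay above all control values. Mutant over control means gave 1.21, with a log2 change of 0.26 ± 0.07, with a 95% interval from 0.11 to 0.42 (limma adjusted p = 0.247, unadjusted 0.00538). With sex as a covariate it was 0.20. Sik2 averaged 5.78 ± 0.287 FPKM in mutant and 5.78 ± 0.383 FPKM in control libraries (SD, n = 3 each), and its 95% interval ran from -0.17 to 0.17.

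Epac exchange factors were low in the tissue. Rapgef3 measured 4.94, 6.77 and 5.08 FPKM in mutant libraries and 6.02, 5.47 and 4.70 FPKM in control libraries. Its groups overlapped, and its log2 change of 0.04 ± 0.13 (SE, limma adjusted p = 0.941) turned to -0.10 with sex as a covariate. Rapgef4 measured 2.53, 2.2 and 2.63 FPKM in mutant libraries and 1.98, 1.73 and 2.53 FPKM in control libraries. Mutant values were mostly higher but overlapped through control replicate 3 (log2 change 0.17 ± 0.12 SE, limma adjusted p = 0.662). Its change was 0.0881 without control replicate 2 and 0.275 without control replicate 3.

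Other genes of the same route gave the setting for these values. Among the receptor, its ligand and 7 G protein genes, Pthlh, which encodes the ligand PTHrP, was called and rose. It measured 12.3, 11.0 and 11.4 FPKM in mutant libraries, against 7.02, 5.94 and 6.91 FPKM in control libraries (log2 change 0.72 ± 0.08 SE, limma adjusted p = 0.0228). Gnas, whose products include the stimulatory G protein that couples Pth1r to the cyclases, overlapped at 1028, 1159 and 923 FPKM in mutant libraries and 1019, 914 and 989 FPKM in control libraries. Of the A-kinase anchoring proteins, which place PKA at sites in the cell, 10 of 13 were tested and 0 passed. The 2 of smallest p were Akap12 and Akap6. Akap12 measured 33.3, 37.8 and 32.1 FPKM in mutant libraries, against 26.1, 28.5 and 26.4 FPKM in control libraries, without overlap (log2 change 0.34 ± 0.07 SE, limma adjusted p = 0.176). Akap6 averaged 3.99 ± 0.0913 FPKM in mutant and 3.52 ± 0.307 FPKM in control libraries (SD, n = 3 each).

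Of 10 other phosphodiesterases 4 were tested and 0 passed, with Pde2a and Pde5a at changes of 0.17 and 0.11. Of 15 other cAMP effectors and CREB partners 11 were tested and 0 passed, with Creb3l1 at -0.18 and Popdc2 at 0.35. Of 14 target genes known to respond to cAMP, 9 were tested, and 6 had positive and 3 negative changes, with 0 past the threshold. Fos, an immediate early gene, averaged 11.2 ± 1.25 FPKM in mutant and 8.64 ± 0.887 FPKM in control libraries, and Nr4a2, a nuclear receptor gene induced by cAMP, 3.93 ± 0.479 and 5.01 ± 0.283 FPKM (SD, n = 3 each). Neither overlapped between genotypes, and their changes had opposite signs (limma adjusted p of 0.292 and 0.333).

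Markers of several cell types also stood apart between the groups. Cartilage markers summed to between 467 and 818 FPKM in mutant libraries and between 1559 and 1905 FPKM in control libraries, and all 9 had negative changes, 5 of them called. Skin and oral epithelium markers summed to between 1797 and 1920 FPKM in mutant and between 635 and 1590 FPKM in control libraries, with 8 of 8 changes positive. The adipocyte markers summed to between 46.2 and 66.9 FPKM in mutant and between 35.2 and 46.2 FPKM in control libraries, which overlapped narrowly. Of the 3 adipocyte markers tested, all had positive changes and only Lpl did not overlap. Adipoq, which defines mature fat cells, was at most 0.276 FPKM in any library. The 6 osteoblast markers all had negative changes. Their sums overlapped, from 4621 to 5352 FPKM in mutant and from 5048 to 6735 FPKM in control libraries, and were mostly Col1a1. Bglap, 1 of the 6, did not overlap, at 7.20, 3.75 and 5.88 FPKM in mutant and 13.95, 10.65 and 28.09 FPKM in control libraries. The neuron and endothelial sums overlapped between genotypes. Of the 7 endothelial markers, 6 had positive changes and 0 were called. Tek, Tie1 and Emcn, 3 of the 7, did not overlap and were higher in mutant. The part of any of these cell types in the values of Pde3b, Pde1a, Sik1, Adcy5 and the other members was not tested.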

How the data were processed

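The authors deposited FPKM values, 1 per gene symbol and library, per the file headers. The build was mm10, and Cuffdiff 2.2.1, SAMtools 0.1.18, TopHat2 2.1.1 and Bowtie2 2.2.8 were used, per the submitters' processing notes. Per the labels' protocols, RNA was taken up in TRIzol and a stranded messenger RNA kit was used. Annotation and strand use were not stated in these sources, so reads of overlapping genes may be shared. Groups follow the genotype label. The labels give no replicate numbers, so those used here follow the order of the samples within each genotype. Depth was estimated from the steps between low FPKM values (below 0.15) and the annotated length of 283 single-transcript genes (quartiles 11800000 and 13100000 fragments for control replicate 1); it is not a deposited count.

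FPKM values are not counts, so values were analysed as log2(FPKM + 1) for 14766 genes averaging 1 FPKM or more, with limma 3.58.1 in R 4.3.3 (trend, two-sided, no covariate, 4 residual degrees of freedom). P-values were adjusted by Benjamini-Hochberg over all tested genes, with a threshold of 0.05. The fit was tested on simulated data with normally distributed noise and 200 changed genes. It recovered 88.9% of added log2 changes of 1 and 97.9% of changes of 2. Changes as small as those of the members were not simulated. The members and lists were chosen with earlier results of these data known. Libraries are given in full for members whose groups do not overlap and for the highest level and smallest p in each class; of other lists, called genes or the 2 of smallest p are named. Positions are from GENCODE on GRCm38, the coordinates of mm10. Alternatives covered the pseudocount, filter, scaling, variance model, weights, threshold, sex and leaving out each library. Protein sequences were not used here.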

Additional observations from a re-analysis of the deposited data

How the results depend on the processing

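Under 19 alternatives 0 members were called in each, and the smallest limma adjusted p of any member was 0.109. The 12 members whose groups do not overlap became 23 with the libraries that hold Xist alone, where 1 mutant library faces 3 and 52.5% of all genes do not overlap, and 9 to 18 elsewhere; the member count without each library in turn was 13 to 18 of 38, where 24.3% to 29.5% of all genes do not overlap, against 17.0% with all 6 libraries. Members at an unadjusted p under 0.05 became 2 with sex as a covariate or with those libraries alone. Genes called, 39 in all, became 80 at an adjusted p under 0.1, 71 with library weights, 19 without trend, 18 with no filter and 10 with sex as a covariate, and ran from 17 to 44 without each library in turn. Of the 19 members picked by the naming rule, 17 kept their direction throughout. The alternatives of threshold, filter and variance model leave the estimate of a change as it was, so they could not turn it. For the 12 picked because their groups do not overlap, the pseudocount, weights, sex and leaving out a library could not turn it either. Their kept direction therefore follows from how they were picked, and only the scaling alternatives could have turned it. Sex as a covariate and the libraries with Xist alone give the same estimate as each other. Over all 38, 7 turned negative with sex as a covariate: Rapgef3, Adcy2 (-0.02), Creb1 (-0.02), Pde1c (-0.04), Pde8b (-0.05), Prkar2a (-0.05) and Sik2 (-0.05). Pde4a turned to -0.0389 without control replicate 1, the low end of a range up to 0.085 when each library is left out; for Rapgef3 that range was from -0.0842 to 0.109. Rapgef3 turned to -0.100 with sex as a covariate or the libraries with Xist alone, -0.0115 with library weights, -0.0406 without control replicate 3 and -0.0842 without mutant replicate 2. The causes were not tested. No paired analysis was possible because the labels name no litter or other pairing of the libraries. With 3 libraries a group, SEs of members ran from 0.0438 to 0.167 on the log2 scale, and mutant replicate 3 was the shallowest library.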
